A study of Rattus norvegicus with 20 samples.

Results

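Egr1, Egr2, Egr3 and Egr4 form the early growth response family of zinc finger transcription factors, and their mRNA was read here in the hippocampus of female rats. The members were taken by gene symbol, 4 of the 17168 genes in each table, and all 4 had reads in every rat. Egr2 is named by the study for its difference between genotypes, and the other members were added by family, so the members were chosen by the difference of Egr2 between TGNT and WTNT rats, and all values of that comparison are given below as a description, without a test. The treatment comparison used other libraries. The members were chosen with earlier results of these data known, so its p-values may not be free of selection.

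Hippocampal poly(A) mRNA of females was sequenced at 4 months of age in 20 stranded libraries, each counted here as 1 rat. The genotype comparison held 5 untreated wild-type rats on rodent chow (WTNT) and 5 untreated TgF344-AD transgenic rats on rodent chow (TGNT). The transgenic rats carry human Swedish APP and a second human transgene of familial Alzheimer's disease, both driven by the prion promoter. The treatment comparison held 4 further TGNT libraries and 6 from TgF344-AD rats fed DZ/DIB chow (TGTR), and both of its groups carry the transgenes. Diazoxide (DZ, 10 mg/kg per day) opens ATP-sensitive potassium channels, and dibenzoylmethane (DIB, 200 mg/kg per day) is a curcumin-related compound; feeding began on day 52. No treated wild-type rats were sequenced, and the labels give the left hippocampus while the study's methods give the right. Rats of the study were food-restricted and trained in a radial arm maze at this age, and the time from the last trial to the collection of tissue is not given in the sources used here. The labels also do not say whether the TGNT libraries of the comparisons came from separate animals. Same-numbered TGNT libraries of the tables deviated from their group means with r from -0.27 to 0.28 across genes, within the range of -0.34 to 0.39 for libraries of different number.

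Egr genes are immediate early genes: neuronal activity and growth factors switch them on within minutes, without new protein synthesis, through kinase signalling to serum response factor and CREB on their promoters. The proteins bind GC-rich elements in target genes, and the NAB co-repressors restrain them. Egr1 (also known as Zif268) is widely used as a marker of active neurons and is needed for late long-term potentiation and the storage of memories. Egr2 (Krox20) patterns the hindbrain and drives myelination by Schwann cells, Egr3 acts in synaptic plasticity and muscle spindle development, and Egr4 is needed for male fertility in mice. In bulk tissue, fewer cells of a type and less RNA per cell cannot be told apart.

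The promoters of 3 members were read from RefSeq (build GRCr8) and are shown with exact letter matches to sites of serum response factor and CREB. Whether these matches are in use was not tested. Each line gives the 250 bases before the annotated start, 5′ to 3′ on the strand of the gene, at chr18:26736828-26737077 (plus strand) for Egr1, chr20:21054442-21054691 (minus strand) for Egr2 and chr4:119607818-119608067 (minus strand) for Egr4. Capitals mark the CArG box, the site of serum response factor, and the CRE core TGACG, part of the site of CREB, here read from the opposite strand as CGTCA.
Egr1: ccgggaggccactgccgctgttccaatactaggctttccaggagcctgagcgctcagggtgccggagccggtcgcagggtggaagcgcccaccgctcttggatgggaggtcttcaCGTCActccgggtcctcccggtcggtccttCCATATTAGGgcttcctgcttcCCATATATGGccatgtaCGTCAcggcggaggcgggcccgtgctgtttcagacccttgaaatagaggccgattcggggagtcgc
Egr2: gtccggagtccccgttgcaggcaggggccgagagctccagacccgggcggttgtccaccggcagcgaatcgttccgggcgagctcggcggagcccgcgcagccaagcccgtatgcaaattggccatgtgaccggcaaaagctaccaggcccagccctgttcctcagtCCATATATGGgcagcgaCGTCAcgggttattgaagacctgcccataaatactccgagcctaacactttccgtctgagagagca
Egr4: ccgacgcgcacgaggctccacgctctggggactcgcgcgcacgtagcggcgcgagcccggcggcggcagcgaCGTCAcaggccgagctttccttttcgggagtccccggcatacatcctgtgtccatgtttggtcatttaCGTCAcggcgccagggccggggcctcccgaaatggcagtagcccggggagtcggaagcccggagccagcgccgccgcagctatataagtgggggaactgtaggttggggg

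The Egr1 promoter held 2 CArG boxes, CCATATTAGG at 105 to 96 bases and CCATATATGG at 83 to 74 bases before the start. Egr2 held 1, CCATATATGG, at the same distance of 83 to 74 bases. In both genes a CRE core followed at 66 to 62 bases before the start, and Egr1 had another at 135 to 131 bases. The Egr4 window held 0 CArG boxes and 2 CRE cores, at 178 to 174 and 110 to 106 bases. Searched on both strands, a CArG box was present in 1.5% of the 33469 promoters of this length (27457 genes, some with several starts), and a CRE core in 18.2%. Among the 27 promoters of 22 of the other immediate early genes listed below, 1 (3.7%) held a CArG box and 11 (40.7%) a CRE core. The full CRE TGACGTCA, which contains the core, and the EGR element GCGNGGGCG were found in 0 of these 3 members, against 1.59% and 4.29% of all promoters. A match of letters is a description of the window only. The annotated Egr2 gene extends upstream of its window.

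Estimated counts summed to between 5848458 and 9926088 per rat in the genotype comparison and to between 9215039 and 14175594 in the treatment comparison. Levels are reads per 1000000 (RPM) scaled with TMM factors, each comparison by itself, and were not compared between the comparisons. Since RPM are not per length, no order of levels between genes is given. App reads, which include the human transgene, ranged from 1031 to 1160 RPM in WTNT and from 2071 to 2364 RPM in TGNT rats of the genotype comparison, and from 2216 to 2757 RPM over the treatment comparison. Markers of CA1, CA3 and the dentate gyrus were present in every rat, with CA1 sums from 492 to 1154 RPM. A pair of libraries stood apart in the choroid plexus gene Ttr, TGTR replicate 5 with 2501 RPM and TGTR replicate 6 with 107.6 RPM, against 0.25 to 11.7 RPM in the other 18 rats.

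The genotype comparison asked which genes differ in TgF344-AD females at an age before pathology. Egr1, Egr2 and Egr4 had lower mean levels in TGNT than in WTNT rats, and the Egr3 means lay within their spread. The groups were separate in Egr2 alone among the members. Over the whole table, edgeR's quasi-likelihood test called 2 of 17168 genes (0.0116%), with thresholds of 1.5-fold and 0.05 for the adjusted p. This count is a background for the table, and no call of a member, Egr2 included, is given by it.

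Egr1 measured 47.7, 63.1, 61.1, 53.4 and 34.6 RPM in the 5 WTNT rats and 36.1, 36.5, 27.6, 35.1 and 39.3 RPM in the 5 TGNT rats. WTNT replicate 5 lay among the TGNT rats, and the other 4 WTNT rats lay above all TGNT rats. The group means were 52.0 ± 11.5 RPM (SD, n = 5) in WTNT and 34.9 ± 4.35 RPM (SD, n = 5) in TGNT. This gave -0.58 as the log2 fold change (standard error 0.139).

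Egr2 rested on few reads, with 37 to 84 counts per WTNT rat and 16 to 39 per TGNT rat. Its levels were 6.13, 8.59, 10.3, 8.36 and 6.37 RPM in WTNT and 4.00, 3.77, 4.94, 2.14 and 4.86 RPM in TGNT rats. Every TGNT rat lay below every WTNT rat. Where the table mean was 1 RPM or more, 36 of 11641 genes (0.309%) had such separate groups with TGNT lower. The means were 7.95 ± 1.71 RPM (SD, n = 5) and 3.94 ± 1.13 RPM (SD, n = 5), and on the log2 scale the difference was -1.01 (standard error 0.212).

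Egr3 measured 24.9, 22.3, 16.6, 20.7 and 19.4 RPM in WTNT rats and 19.9, 21.1, 16.6, 20.8 and 18.1 RPM in TGNT rats. The groups covered nearly the same range. With means of 20.8 ± 3.09 RPM (SD, n = 5) and 19.3 ± 1.92 RPM (SD, n = 5), the log2 fold change was -0.10 (standard error 0.114).

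Egr4 measured 7.96, 5.63, 6.97, 6.32 and 5.42 RPM in WTNT rats and 7.87, 4.68, 3.17, 4.81 and 3.24 RPM in TGNT rats. TGNT replicate 1 lay near the highest WTNT rat, while the other 4 TGNT rats lay below all WTNT rats. The means were 6.46 ± 1.04 RPM (SD, n = 5) and 4.75 ± 1.90 RPM (SD, n = 5), and the log2 fold change was -0.43 (standard error 0.228). Without TGNT replicate 1 it was -0.69.

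**Figure D1:**
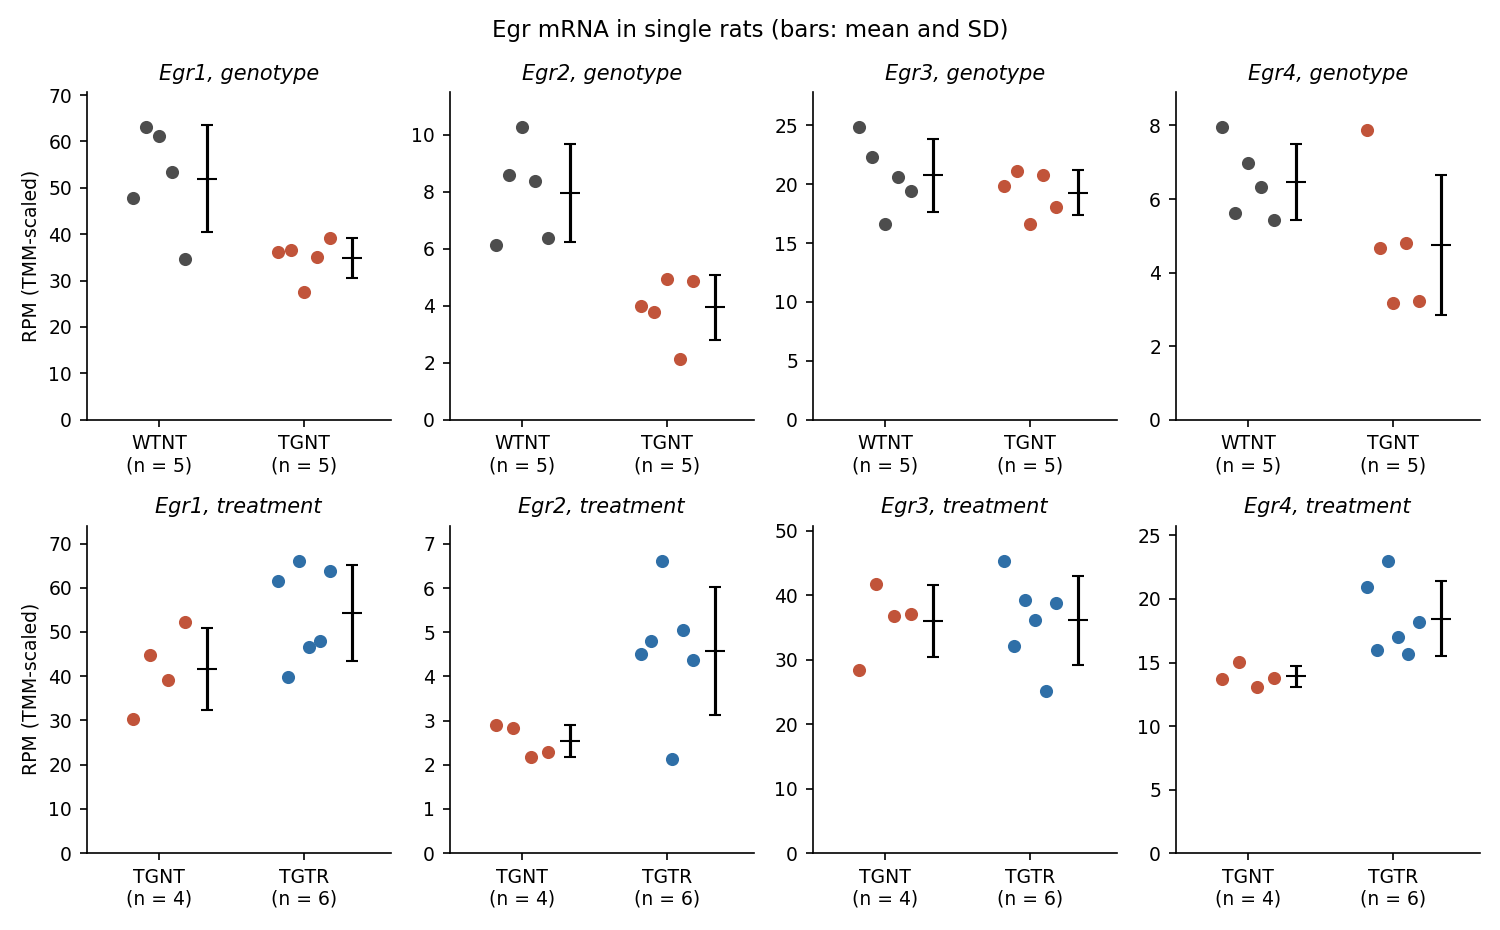
Level of each Egr gene in RPM (vertical axis, linear from 0) for each rat (points) of the genotype comparison and of the treatment comparison, with the group mean and SD as bars. TGNT and WTNT rats are separate in Egr2, where WTNT rats reach from 6.13 to 10.3 RPM, and TGTR and TGNT rats are separate in Egr4, where TGNT rats reach from 13.1 to 15.1 RPM.

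The treatment comparison asked whether DZ/DIB altered expression in transgenic rats. Mean levels of Egr1, Egr2 and Egr4 were higher in TGTR than in TGNT rats, and the Egr3 means were nearly equal. With edgeR's quasi-likelihood test, adjusted over all 17168 genes, 0 of the 4 members and 0 genes (0%) of the whole table passed the thresholds. At an unadjusted p under 0.05, 3 of the 4 members were higher and 0 were lower, beside 843 of 17168 genes in either direction (4.91%), 511 higher (2.98%) and 332 lower (1.93%). Of the 17168 genes, 14884 had reads. DESeq2, edgeR's likelihood ratio test and limma-trend also called 0 of the 4 members. With limma-trend and with a replicate block, 2 members remained at an unadjusted p under 0.05, since Egr1 then had p of 0.0781 and 0.077 (limma with 0.1 and 1 added) and 0.117 (edgeR with the block). Leaving out single rats gave 2 or 3 members at an unadjusted p under 0.05, and 2 in each of the fits without TGNT replicate 1 or 3 or TGTR replicate 1, 3 or 6.

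Egr2 measured 2.89, 2.83, 2.18 and 2.30 RPM in the 4 TGNT rats, and 2.13, 4.65 and 6.62 RPM were the lowest, median and highest of the 6 TGTR rats. TGTR replicate 4, with 27 counts, lay below all TGNT rats, and the other 5 TGTR rats lay above all of them. The means were 2.55 ± 0.362 RPM (SD, n = 4) and 4.58 ± 1.45 RPM (SD, n = 6). On the log2 scale the difference was 0.84 (standard error 0.255, edgeR unadjusted p = 0.00572, adjusted p = 0.957). An exact two-sided permutation test of the mean RPM gave an unadjusted p = 0.0429, where 0.00476 is the smallest p that 6 rats against 4 allow. Without TGTR replicate 4 the log2 fold change was 0.99 (edgeR, adjusted p = 0.594).

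Egr4 measured 13.7, 15.1, 13.1 and 13.8 RPM in TGNT rats, and TGTR rats ranged from 15.7 to 23.0 RPM with a median of 17.6 RPM. All 6 TGTR rats lay above all TGNT rats, although the highest TGNT and the lowest TGTR rat were close. Separate groups with TGTR higher were found in 96 of the 11855 genes at or above 1 RPM (0.81%). The means were 13.9 ± 0.843 RPM (SD, n = 4) and 18.5 ± 2.93 RPM (SD, n = 6), 0.41 apart on the log2 scale (standard error 0.114, edgeR unadjusted p = 0.00321, adjusted p = 0.954). The exact two-sided permutation test gave an unadjusted p = 0.019.

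Egr1 measured 30.3, 44.9, 39.2 and 52.3 RPM in TGNT rats, while the lowest, median and highest TGTR rats had 39.9, 54.8 and 66.1 RPM. The groups overlapped, and 3 of 6 TGTR rats lay above all TGNT rats. The means were 41.7 ± 9.27 RPM (SD, n = 4) and 54.3 ± 10.8 RPM (SD, n = 6), with a log2 fold change of 0.39 (standard error 0.162, edgeR unadjusted p = 0.0327, adjusted p = 0.964). The exact two-sided permutation test of this difference gave an unadjusted p = 0.0952.

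Egr3 measured 28.5, 41.8, 36.8 and 37.1 RPM in TGNT rats and from 25.2 to 45.4 RPM, with a median of 37.5 RPM, in TGTR rats. TGNT rats lay within the range of TGTR rats. The means were 36.0 ± 5.54 RPM (SD, n = 4) and 36.2 ± 6.89 RPM (SD, n = 6). The log2 fold change of 0.01 had a 95% interval from -0.29 to 0.31 (edgeR adjusted p = 1), and the exact two-sided permutation test gave p = 0.981.

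**Figure D2:**
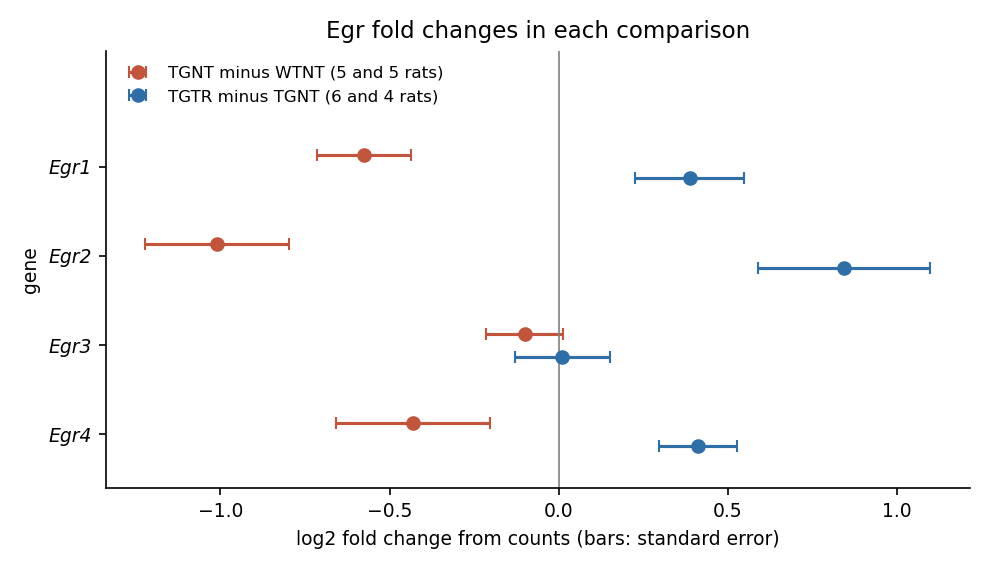
Log2 fold change of each Egr gene from the counts (horizontal axis) in the genotype comparison (TGNT minus WTNT, 5 and 5 rats) and in the treatment comparison (TGTR minus TGNT, 6 and 4 rats), with the standard error as bars. Egr1, Egr2 and Egr4 lie below 0 in the first and above 0 in the second, with Egr2 at -1.01 and 0.84, while Egr3 lies at -0.10 and 0.01.

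Within each rat the level of one member was also set against that of another, as a log2 ratio, to follow differences of that ratio between groups. The value of the ratio itself depends on transcript length. The Egr2 to Egr3 ratio averaged -1.40 ± 0.48 (SD, n = 5) in WTNT and -2.35 ± 0.61 (SD, n = 5) in TGNT rats. In the treatment comparison it averaged -3.82 ± 0.35 (SD, n = 4) in TGNT and -3.03 ± 0.64 (SD, n = 6) in TGTR rats. The differences in mean log2 ratio were thus -0.94 and 0.79. For Egr1 to Egr3 they were -0.45 and 0.39, and for Egr4 to Egr3 they were -0.41 and 0.40. The groups overlapped in each of these ratios. Untreated TGNT rats themselves differed between the comparisons, with Egr2 to Egr3 at -2.35 in the genotype and -3.82 in the treatment comparison. Their Egr1 to Egr3 means were 0.85 and 0.19, and their Egr4 to Egr3 means -2.10 and -1.36. The ratios are therefore read within each comparison only.

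The spread between rats was set against the error expected from counting reads. For Egr1 the coefficient of variation between rats was 12.5% to 22.3% in the 4 groups, against a mean counting error of 3.90% to 6.18%. Egr2 varied by 14.2% to 31.6% against a counting error of 13.7% to 18.9%, and in TGNT rats of the treatment comparison its spread, 14.2%, was below the counting error of 18.4%. Egr4 varied by 6.06% in those TGNT rats, also below its counting error of 7.82%, and by 40.1% in TGNT rats of the genotype comparison, against 17.4%. For Egr3 the figures were 9.93% to 19.1% against 4.79% to 8.36%. Counting errors cover the number of reads only.

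Whether members moved together from rat to rat was read from log2(RPM + 1) as deviations from the group mean, over 20 rats and 6 pairs, with 100000 permutations of rats within groups and adjustment over the 6 pairs. Egr3 and Egr4 had Pearson's r = 0.47 (two-sided permutation p = 0.0183, adjusted 0.11) and Spearman's rho = 0.69 (permutation p = 0.00195, adjusted 0.0117). Only the rank correlation passed. It was 0.89 in the treatment comparison (permutation test, n = 10, adjusted p = 0.0201) and 0.47 in the genotype comparison (permutation test, n = 10, adjusted p = 0.385). Without the 2 rats farthest from the median of Egr3, r was 0.47 and rho 0.68 (adjusted permutation p = 0.0304 for rho), and without TGTR replicate 5, rho was 0.61 and its adjusted permutation p 0.065.

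Egr1 with Egr3 gave r = 0.47 and rho = 0.48 (permutation p = 0.0704 and 0.0587, adjusted 0.158 and 0.118), with r of 0.10 in the genotype and 0.70 in the treatment comparison and 0.38 without the farthest 2 rats. Egr1 with Egr4 gave r = 0.36 and rho = 0.43 (permutation p = 0.0792 and 0.0591, adjusted 0.158 and 0.118), with r of 0.22 and 0.67 in the comparisons and 0.33 without those rats. Neither passed the threshold. Egr2 went with no other member past the threshold. Its r with Egr1 was 0.26 and its rho 0.24 (permutation p = 0.285 and 0.335, adjusted 0.342 and 0.402), with r of 0.34 and 0.20 in the comparisons and 0.27 without the farthest rats. With Egr3 its r was -0.30 and its rho -0.39 (permutation p = 0.261 and 0.119, adjusted 0.342 and 0.179), with r of -0.65 and -0.09 in the comparisons and -0.36 without the farthest rats. Egr2 with Egr4 gave r = -0.03 and rho = -0.14 (permutation p = 0.927 and 0.603, adjusted 0.927 and 0.603), with r of -0.28 and 0.44 in the comparisons and -0.09 without the farthest rats.

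**Figure D3:**
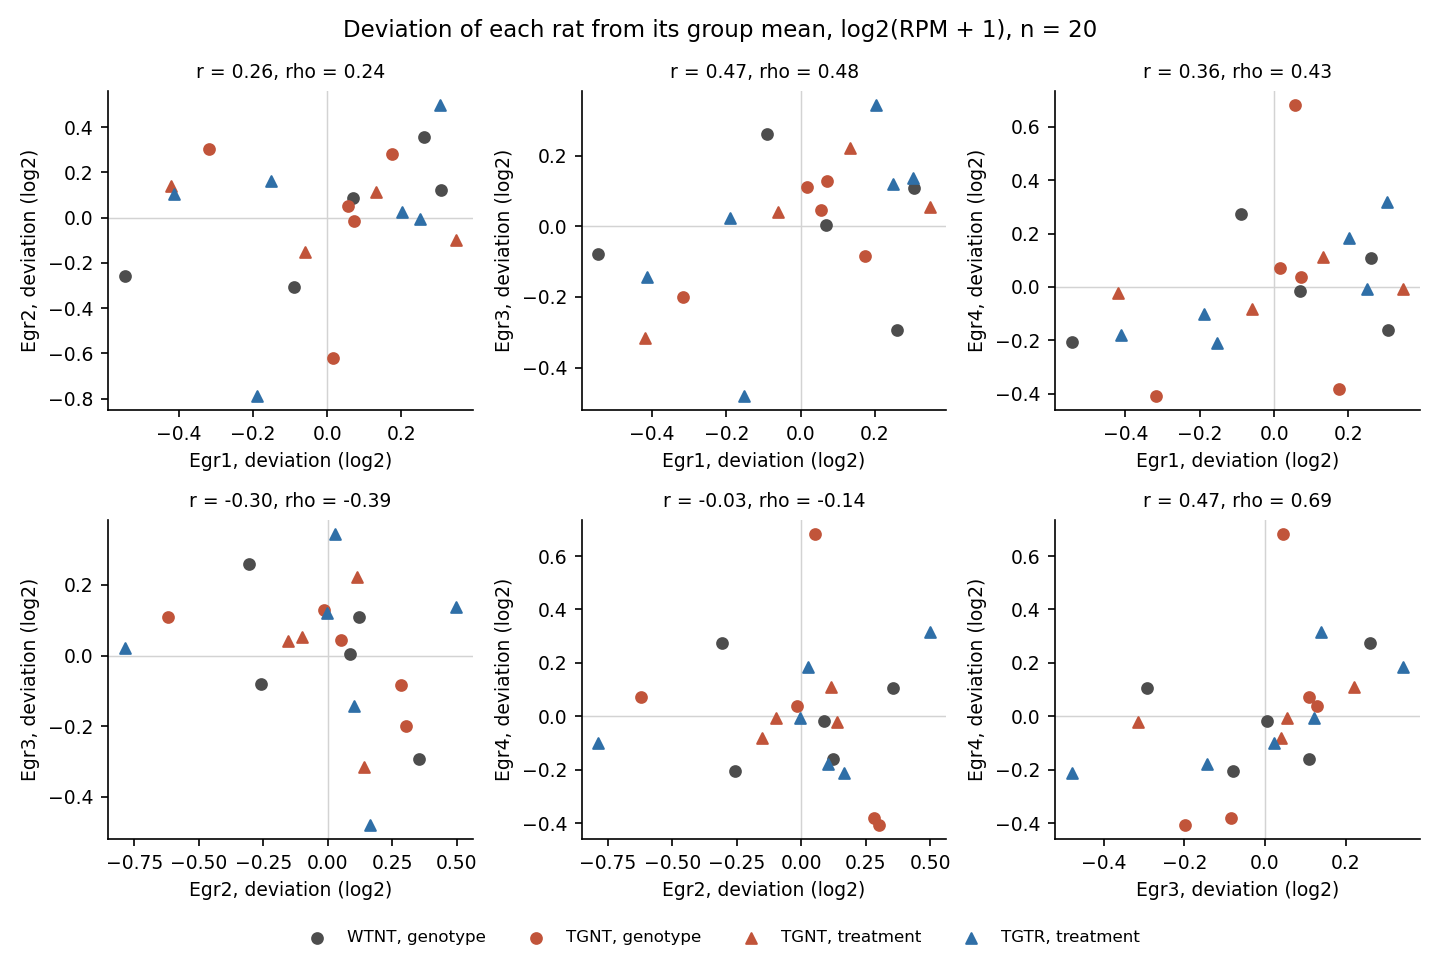
Deviation of each of 20 rats from its group mean on the log2(RPM + 1) scale, for each of the 6 pairs of Egr genes, with one gene on each axis, coloured by group and with circles for the genotype and triangles for the treatment comparison. Points rise from lower left to upper right for Egr3 with Egr4 (rho = 0.69) and scatter for Egr2 with Egr4 (rho = -0.14).

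Among 11554 genes at or above 1 RPM in both tables, the genes that varied most like each member over the 20 rats were found by Pearson's r of the same deviations, as a description. Egr3 had the closest companions, Sbf1 (r = 0.933), Pragmin (r = 0.933), Rnasek (r = 0.931), Sort1 (r = 0.92) and Rab15 (r = 0.919). For Egr1 they were Sidt1 (r = 0.854), Slc45a3 (r = 0.833), Rasd2 (r = 0.831), RGD1565002 (r = 0.83) and Lyzl4 (r = 0.82). Each of these 10 genes had r of at least 0.74 in either comparison taken alone. They were chosen over these same 20 rats, so this is no separate support.

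For Egr2 the most alike were Nudcd2 (r = 0.834), Nadsyn1 (r = 0.794), Tceal1 (r = 0.794), Dynlt1 (r = 0.79) and Abhd5 (r = 0.711). Abhd5 had r = 0.947 in the treatment and 0.466 in the genotype comparison. For Egr4 they were LOC690871 (r = 0.826), Mrpl20 (r = 0.814), Rnf26 (r = 0.789), Nrbp1 (r = 0.785) and Emc10 (r = 0.766). LOC690871 had r = 0.933 in the genotype and 0.527 in the treatment comparison. The members themselves stood lower in these orders of 11553 other genes. Nearest was Egr3 for Egr4, at place 838, followed by Egr3 for Egr1, at place 1010. For Egr2, Egr1 stood at place 1699, Egr4 at 6364 and Egr3 at 10325.

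Lists of other immediate early genes, of upstream factors and co-regulators and of reported EGR targets were read beside the members. They were drawn up with earlier results of these data known and support no direction by themselves. In the genotype comparison, 0 of 32 other immediate early genes passed the thresholds with edgeR's quasi-likelihood test, its likelihood ratio test, DESeq2 or limma-trend. At an unadjusted p under 0.05, 6 were lower and 0 were higher in TGNT rats. Over all 17168 genes, 14659 of them with reads, 1.5% were lower and 1.72% higher. The median log2 fold change of the list was -0.09, against 0.01 over all genes with reads. The 6 were Nr4a1, Nr4a3, Fosb, Arc, Per1 and Trib1, and without WTNT replicate 3 there were 9. Nr4a1, an orphan nuclear receptor induced by activity, had means of 47.0 ± 7.93 and 34.1 ± 2.27 RPM in WTNT and TGNT rats (SD, n = 5 each). For its relative Nr4a3 the means were 145 ± 7.57 and 124.9 ± 6.08 RPM (SD, n = 5 each). Fosb, a subunit of the AP-1 factor, had 14.4 ± 1.73 and 10.9 ± 1.124 RPM (SD, n = 5 each). The adjusted p was 1 for each of the 3 (edgeR), which were the genes of the list with the smallest unadjusted p.

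In the treatment comparison, 0 of the same 32 genes passed with any of these tools. At an unadjusted p under 0.05, 10 of the 32 were higher and 0 lower in TGTR rats. Over all 17168 genes, 14884 of them with reads, the shares were 2.98% higher and 1.93% lower. Of the 32, 24 had a log2 fold change above 0 and 8 below, with a median of 0.26 against 0.00028 over all genes with reads. Leaving out single rats gave from 7 genes (without TGNT replicate 3) to 14 (without TGTR replicate 1 or 4), 12 without TGTR replicate 5 and 9 without TGTR replicate 6. With a replicate block there were 5. Without TGTR replicate 5 the list median was 0.25. The smallest unadjusted p belonged to Ier5, with means of 38.5 ± 7.73 in TGNT and 51.4 ± 4.37 RPM in TGTR rats (SD, n = 4 and 6), 0.42 apart on the log2 scale (standard error 0.110, edgeR adjusted p = 0.913). Homer1, a scaffold of glutamate receptors, had 131.1 ± 6.52 and 149 ± 6.45 RPM (SD, n = 4 and 6, edgeR adjusted p = 0.913). Nr4a2 had 49.0 ± 10.3 and 66.2 ± 7.39 RPM (SD, n = 4 and 6, edgeR adjusted p = 0.941). The others were Fos, Fosb, Arc, Btg2, Klf2, Sik1 and Ccn1 (listed as Cyr61), with log2 fold changes from 0.26 to 1.11. Arc and Fosb were in both sets, 33.3% of the 6 lower in TGNT and 20% of the 10 higher in TGTR rats. These shares are close to those of the whole list, 10 of 32 higher in TGTR and 6 of 32 lower in TGNT rats.

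The upstream and co-regulator list had 15 of 18 genes in the tables, and 0 passed the thresholds in either comparison with these tools. At an unadjusted p under 0.05, 2 were higher and 3 lower in TGNT rats, and the list's median log2 fold change was -0.05. The higher were Dusp1, a phosphatase that switches off MAP kinases, at 19.0 ± 3.03 RPM in WTNT and 26.5 ± 6.46 RPM in TGNT (SD, n = 5 each), and the MAP kinase gene Mapk3, at 90.8 ± 9.43 and 105.7 ± 7.004 RPM (SD, n = 5 each). The lower were further MAP kinase phosphatases, Dusp4, Dusp5 and Dusp6, with log2 fold changes of -0.46, -0.55 and -0.32 (edgeR adjusted p = 1 for all 5). Without WTNT replicate 2 the number lower was 1 (Dusp5), and without WTNT replicate 3 it was 4, with Srf added. In the treatment comparison 2 were higher and 0 lower, with a median of 0.02. Dusp1 had means of 12.1 ± 2.11 in TGNT and 18.4 ± 5.19 RPM in TGTR rats (SD, n = 4 and 6, log2 fold change 0.60, edgeR adjusted p = 0.964). The co-repressor gene Nab1 had 51.0 ± 1.88 and 54.6 ± 2.12 RPM (SD, n = 4 and 6), 0.10 apart on the log2 scale (edgeR adjusted p = 0.99). The number higher was 1, Dusp1, in the fits without TGNT replicate 2, 3 or 4 or TGTR replicate 1, 2, 3 or 4, and 0 with a replicate block. Without TGTR replicate 5 it was 3, with Dusp6 added, and the list median was 0.02.

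Of 13 reported EGR targets, 0 passed the thresholds with any of these tools and 0 had an unadjusted p under 0.05 in either comparison. The list medians were -0.02 and 0.0047 on the log2 scale. Syn2, a synaptic vesicle gene, measured 376.5 ± 43.4 RPM in WTNT and 400.6 ± 44.9 RPM in TGNT rats (SD, n = 5 each), and 556.9 ± 52.7 RPM in TGNT and 505.5 ± 35.5 RPM in TGTR rats (SD, n = 4 and 6). The log2 fold changes of Prx, a myelin gene of Schwann cells, were -0.35 and -0.34 at levels of 1.35 to 2.21 RPM (edgeR adjusted p = 1 and 0.99). Single genes passed an unadjusted p of 0.05 without 1 rat: Dlg4 (lower) without WTNT replicate 3 and Fn1 (higher) without WTNT replicate 5 between genotypes, and Syn2 (lower) without TGNT replicate 4 or TGTR replicate 2 and Prx (lower) without TGTR replicate 5 between treatments. Without TGTR replicate 5 the list median was 0.03.

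**Figure D4:**
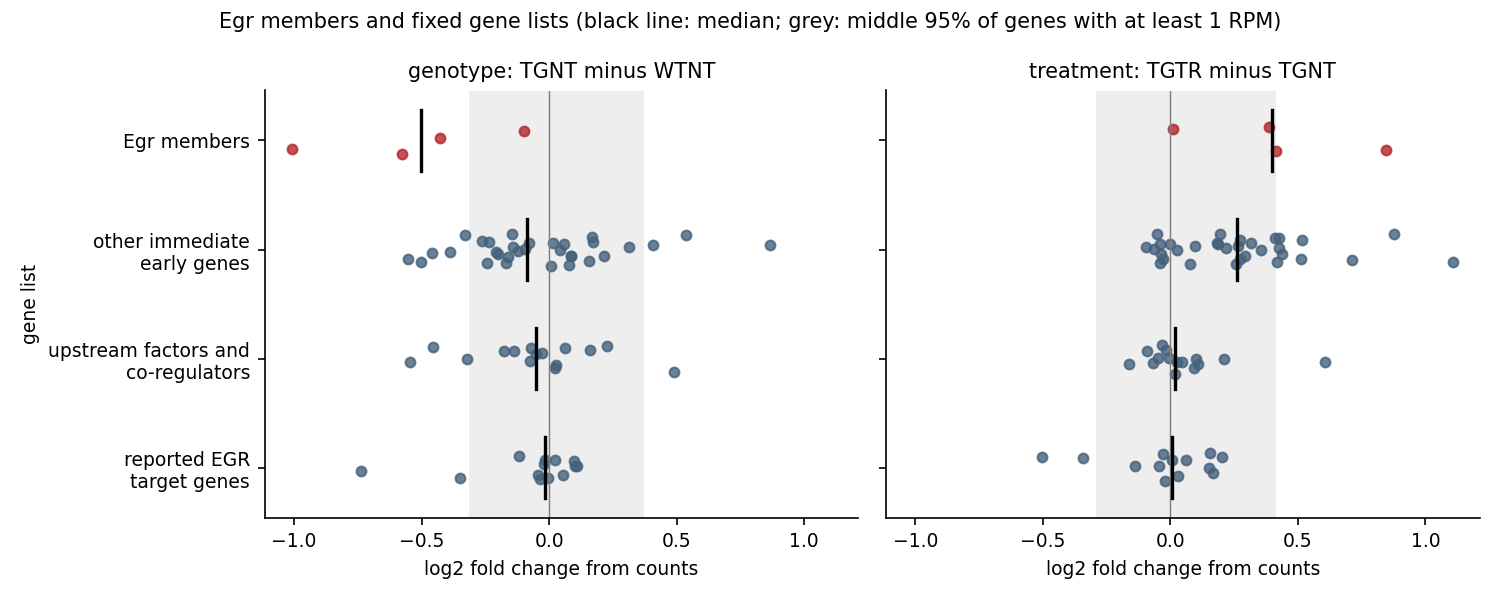
Log2 fold changes from the counts (horizontal axis) of single genes (points) in the Egr family and in the lists of other immediate early genes, upstream factors and co-regulators, and reported EGR targets, for the genotype comparison (left) and the treatment comparison (right). Black lines give list medians, -0.09 and 0.26 for the other immediate early genes, and the grey band spans the middle 95% of genes with at least 1 RPM, from -0.31 to 0.37 and from -0.29 to 0.41.

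Markers of other cell types and regions were read beside these differences, as the summed RPM of 12 lists, and their part in the Egr results was not tested. In the genotype comparison 0 of the 12 sums were separate between groups. Of the oligodendrocyte genes 9 of 9 had a log2 fold change below 0 in TGNT rats, with sums of 4449 to 8098 RPM against 4719 to 10713.2 RPM in WTNT, and 7 of 7 microglial genes had one above 0, with sums of 177 to 203.1 against 173.6 to 186.2 RPM. Dentate gyrus genes were higher in 1 and lower in 6 of 7, with sums of 230.3 to 409 RPM (TGNT) against 141.1 to 428.9 RPM (WTNT), and CA1 genes were higher in 1 and lower in 5 of 6, with sums of 492 to 843 against 627 to 873 RPM. Thalamus and habenula genes with reads were higher in 3 of 3, with sums of 53.7 to 83.4 against 34.0 to 101.8 RPM. Blood genes were higher in 5 of 6, endothelial genes in 3 of 5 and astrocyte genes in 3 of 6. Choroid plexus genes were lower in 8 of 10 and cortex and subiculum genes in 4 of 5. Neuronal genes were lower in 4 of 6 and CA3 genes in 3 of 5.

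In the treatment comparison 1 of the 12 sums was separate, that of the thalamus and habenula, at 34.3 to 44.1 RPM (TGNT) and 48.1 to 70.4 RPM (TGTR). Its 3 detected genes, Tcf7l2, Prkcd and Slc17a6, were all higher, and the study itself names Slc17a6 for this difference. Gbx2 was at 0 in all rats. Cortex and subiculum genes were higher in 5 of 5, with sums of 158.9 to 189.8 and 181.3 to 216.1 RPM, and oligodendrocyte genes in 9 of 9, with sums of 4273 to 6790 and 5038 to 7690 RPM. Endothelial genes were higher in 5 of 5 and blood genes in 6 of 6, the latter with sums up to 323.5 RPM (TGNT) and 1751 RPM (TGTR). Dentate gyrus genes were higher in 5 and lower in 2 of 7, with sums of 232.9 to 365.3 RPM (TGNT) against 217.7 to 407.5 RPM (TGTR). CA1 genes were higher in 5 and lower in 1 of 6, with sums of 768.5 to 1025 against 691.8 to 1154 RPM. Without TGTR replicate 5, 7 of 7 dentate gyrus and 5 of 6 CA1 genes were higher. Other lists leaned the opposite way, with 6 of 6 astrocyte, 6 of 7 microglial, 5 of 6 neuronal and 4 of 5 CA3 genes lower in TGTR rats. Without TGTR replicate 5 these counts were 2 of 6, 3 of 7, 4 of 6 and 5 of 5. Choroid plexus genes were higher in 10 of 10, but the median sum was lower, 6.50 RPM in TGTR against 13.1 RPM in TGNT rats. The highest choroid plexus sum was 3074 RPM in TGTR replicate 5, 147.3 RPM was the highest without it, and 7.42 RPM without replicates 5 and 6, below the lowest TGNT sum of 8.14 RPM.

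Without TGTR replicate 5 the log2 fold changes were 0.42 for Egr1, 0.82 for Egr2, 0.09 for Egr3 and 0.46 for Egr4. Without TGTR replicate 6 they were 0.34, 0.85, -0.01 and 0.42, and the unadjusted p of Egr1 was 0.0718 (edgeR).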

How the data were processed

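The authors deposited, for each comparison of 10 rats, a table of estimated counts per gene symbol, not normalized, and a table of RPM, a signal that they scaled with TMM factors over the rats of that table. The submitters' processing notes name bcl2fastq 2.17, Bowtie2 2.1.0, RSEM 1.2.15, edgeR and build rn6, without roles. The annotation and the strand setting are not given in the sources used here. Columns were matched to rats by title, and 0 columns were left without a sample. All 80 Egr counts were whole numbers.

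For each comparison, counts of all 17168 genes were rounded, scaled with TMM and given to the quasi-likelihood test of edgeR 4.0.16 (R 4.3.3). Two-sided p-values received the Benjamini-Hochberg adjustment, with thresholds of an adjusted p of 0.05 and a fold change of 1.5. Means and SD are of the deposited RPM. Exact permutation tests used all 210 arrangements of 6 and 4 rats, and their p-values were not adjusted over the 4 members. Promoters came from RefSeq (GRCr8), and rn6 coordinates were not used. The fits were also run on simulated counts, with changes put only into genes of higher mean count than Egr2 in either comparison. That run therefore does not cover Egr2, nor Egr4 between genotypes. Alternatives were DESeq2 1.42.0, limma-trend (limma 3.58.1) on log2 RPM with 1 or 0.1 added, edgeR's likelihood ratio test, other scalings and filters, a replicate block and fits without each rat.

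The members and lists were chosen with earlier results of these data known. Named genes are the 4 members, the 3 genes of each list with the smallest unadjusted p and the 5 genes most like each member. List genes beyond these were named after their values were seen, for an unadjusted p under 0.05. At totals of 5848458 to 14175594 counts per rat, 16 to 84 counts stood behind each Egr2 value. One transgene is not reported here.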

Additional observations from a re-analysis of the deposited data

How the results depend on the processing

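Each member's log2 fold change was recomputed under 19 alternatives. In the genotype comparison the log2 fold changes of all 4 members stayed below 0. They ran from -0.69 to -0.49 for Egr1, -1.11 to -0.87 for Egr2, -0.19 to -0.04 for Egr3 and -0.69 to -0.32 for Egr4. The alternatives share the same rats, so a kept sign is no separate support. The main Egr3 value, -0.10, was smaller in size than its standard error, 0.114. In the treatment comparison Egr1 (0.26 to 0.51, edgeR, DESeq2 or limma adjusted p of at least 0.675), Egr2 (0.61 to 0.99, at least 0.411) and Egr4 (0.34 to 0.46, at least 0.311) stayed higher in TGTR rats. Egr3 had no stable direction: it was -0.0050 and -0.0046 with limma-trend on log2 RPM with 0.1 and 1 added, and between -0.0837 and 0.0931 over the fits that each omitted a rat. The cause was not tested. Calls over the whole table numbered 4 with the likelihood ratio test against 2 between genotypes, and 3 with DESeq2 and 5 with the likelihood ratio test against 0 between treatments, where 843 genes had an unadjusted p under 0.05. With single rats left out the counts were 2 to 2 and 0 to 0. The correlation of Egr2 with Egr4 changed sign to 0.44 in the treatment comparison alone and to 3.82e-05 without TGTR replicate 5.

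Same-numbered rats deviated from their group means with r from -0.20 to 0.33 over 5 genotype pairs and from -0.57 to 0.12 over 4 treatment pairs. For rats of different number r ran from -0.38 to 0.31 and from -0.41 to 0.56. So few pairs cannot decide whether the replicate numbers pair the rats. With a replicate block the log2 fold changes of Egr1, Egr2, Egr3 and Egr4 were -0.55, -1.003, -0.10 and -0.48 between genotypes and 0.36, 0.77, 0.09 and 0.46 between treatments, where the block used 8 rats, and 2 and 0 genes were called.

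The bias-adjusted quasi-likelihood fit was added after the data were seen. The planned older form of that fit is the default of this edgeR version and so gave no separate value. Depth limits Egr2 and Egr4, at 16 to 84 and 25 to 63 counts per rat between genotypes.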
